A study of Saccharomyces cerevisiae with 4 samples.

Results

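Peaks of the chromatin protein Swc4 that lie between a pair of coding genes transcribed away from each other are described here in budding yeast, Saccharomyces cerevisiae. A peak was counted when its summit, the base of highest signal, fell in such a divergent space. The space had to lie between neighbouring protein-coding genes of assembly R64 and hold no RNA gene. Genes named RPL, RPS or RPP with a number, which encode ribosomal proteins, were left out, as were summits within 30 kb of a chromosome end. This left 292 of the 3382 listed peaks, in 131 of 1267 eligible divergent spaces.

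Chromatin immunoprecipitation and sequencing (ChIP-seq) was run with a myc antibody on untreated haploid BY cells grown to mid-log phase in rich medium. The yaf9d group has 2 libraries from cells whose sample titles name a deletion of YAF9, and the wild_type group has 2 libraries. Swc4 carried a 13myc tag in both groups. The labels do not say if the 2 libraries per genotype were grown as different cultures, so the spread between them may be technical. Each library has its own peak list, which gives no read total, so depth per library is unknown and absence from a list is not absence of binding.

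Swc4 is shared by the SWR1 remodeler, which places the histone variant H2A.Z into nucleosomes, and by the NuA4 histone acetyltransferase. Yaf9 belongs to both complexes as well. Yeast genes that point away from each other often share a stretch poor in nucleosomes, and SWR1 is known to act on the nucleosomes that border such stretches. A divergent space therefore can hold control elements of either gene, and a summit there cannot be assigned to one of them by position alone.

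The 292 peaks were what remained of 628 summits in divergent spaces. Of the others, 30 lay near a chromosome end, 155 shared their space with an RNA gene and a further 151 lay beside a ribosomal protein gene. The class held 99 peaks in yaf9d replicate 1, 71 in yaf9d replicate 2, 53 in wild_type replicate 1 and 69 in wild_type replicate 2. Near the 30 kb limit, the first summit inside was at SCW10 and FKS3, 43.5 kb from the end with a fold of 2.23. The first one outside was at YLL056C and YCT1, 29.5 kb from the end with a fold of 1.80.

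The lists themselves differed. They held 616 and 1139 nuclear peaks in yaf9d and 884 and 704 in wild_type, and 36.3% and 69.6% of interior summits in yaf9d lay inside coding genes, against 73.9% and 60.2% in wild_type. Interior means at least 30 kb from either end. By these shares yaf9d replicate 1 stood apart from the other 3 libraries, and results that turn on it are given without it.

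Divergent spaces held a Swc4 summit more often than spaces of other orientation in all 4 lists. In yaf9d, 98 and 70 of 1267 divergent spaces had one (7.73% and 5.52%), against 53 and 69 in wild_type (4.18% and 5.45%). Among all 4930 spaces between coding genes that met the same filters, the shares were 3.89% and 3.12% in yaf9d and 1.91% and 2.60% in wild_type. Of 2363 tandem spaces, where both genes point the same way, 3.72% and 3.22% had a summit in yaf9d and 1.57% and 2.33% in wild_type. Of 1300 convergent spaces, which lie between gene ends, between 0.308% and 0.615% had one. The divergent share exceeded the tandem share by 3.01 ± 0.744 percentage points (SD, n = 4 libraries) and was higher in 4 of 4 libraries (exact two-sided sign-flip permutation p = 0.125, the smallest that 4 libraries allow). A p of 0.05 could not be reached by any comparison here, and after adjustment over the 11 tests run the lowest value was 0.458.

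The mean was 84 ± 19.8 spaces with a summit in yaf9d and 61 ± 11.3 in wild_type (SD, n = 2 each). The difference of 23 spaces had an exact two-sided permutation p of 0.333, the lowest that groups of 2 allow. The groups did not overlap, but the lower yaf9d library exceeded the higher wild_type library by a single space. Leaving out yaf9d replicate 1 gave a difference of 9, and leaving out yaf9d replicate 2 gave 37. Leaving out wild_type replicate 1 gave 15. Counting spaces overlapped by any part of a peak, in place of a summit, reversed it to -79.5. As a share of interior summits, the class made up 17.5% in yaf9d replicate 1 (exact Clopper-Pearson 95% interval 14.4 to 20.8) and 6.61% in yaf9d replicate 2 (5.20 to 8.27). In wild_type it made up 6.38% (4.81 to 8.26) and 10.4% (8.18 to 13.0). These intervals cover counting error only. The genotype means of 12.0 ± 7.67% in yaf9d and 8.38 ± 2.84% in wild_type overlapped in their spread (exact permutation p = 0.667). Without yaf9d replicate 1 the difference turned from 3.65 to -1.77 percentage points.

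Summits lay in longer spaces. Distances here run between annotated coding starts, since the gene table holds no transcription start sites. Divergent spaces with a summit had median lengths of 989.5 and 1105 bp in yaf9d and 1009 and 1006 bp in wild_type. Those without one had medians of 422 and 437 bp in yaf9d and 443 and 437.5 bp in wild_type. The difference was 592.5 ± 50.3 bp (SD, n = 4 libraries) and was positive in 4 of 4 libraries (exact sign-flip permutation p = 0.125, the smallest possible). A longer space offers more bases in which a summit can fall, so a positive difference was likely in advance. The density of summits was not taken by length, so no preference for long spaces is shown.

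Below 300 bp, 0 of 397 divergent spaces held a summit in any library. Taking 3 as the upper limit of a count of 0 allows a share of up to 0.756%, with spaces treated as independent. Tandem spaces were nearly empty there too. In at least 1 library, 1 of 211 had a summit below 200 bp and 3 of 563 from 200 to 300 bp. Between 300 and 400 bp, 5 of 165 divergent spaces had one in at least 1 library. The share was 9.70% from 400 to 500 bp, 9.35% from 500 to 700 bp and 19.0% from 700 to 1000 bp, and it reached 39.7% (54 of 136) at 1000 bp and above. Tandem spaces of 1000 bp and above reached 26.6%, so long spaces of either orientation held a summit more often than short ones. Peaks in the 4 lists had median widths of 423 and 444 bp in yaf9d and 468 and 550 bp in wild_type for this class, so a space under 300 bp was shorter than a typical peak.

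Length and orientation moved together. Spaces of 1000 bp or more made up 10.7% of divergent and 6.52% of tandem spaces. From 700 to 1000 bp, divergent spaces had a summit in 14.8% and 10.6% in yaf9d and 6.88% and 8.99% in wild_type. Tandem spaces of that length had one in 15.8% and 12.6% in yaf9d and 6.56% and 9.29% in wild_type, so the orientations lay within about 2 percentage points of each other. From 400 to 500 bp divergent spaces had a summit in 5.22% and 3.73% in yaf9d and 4.48% and 2.99% in wild_type. Tandem spaces there had one in 2.67% and 2.67% in yaf9d and 0.8% and 1.33% in wild_type. From 500 to 700 bp neither orientation was higher in every library. The shares parted most at 1000 bp and above. Divergent spaces had a summit in 35.3% and 28.7% in yaf9d and 19.9% and 25.7% in wild_type, whereas tandem spaces had one in 18.8% and 15.6% in yaf9d and 5.84% and 11.7% in wild_type. The median lengths in this bin were alike, at 1356.5 bp for divergent and 1360 bp for tandem spaces. Restricting both orientations to 200 to 1000 bp lowered the mean excess to 1.24 percentage points.

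**Figure D1:**
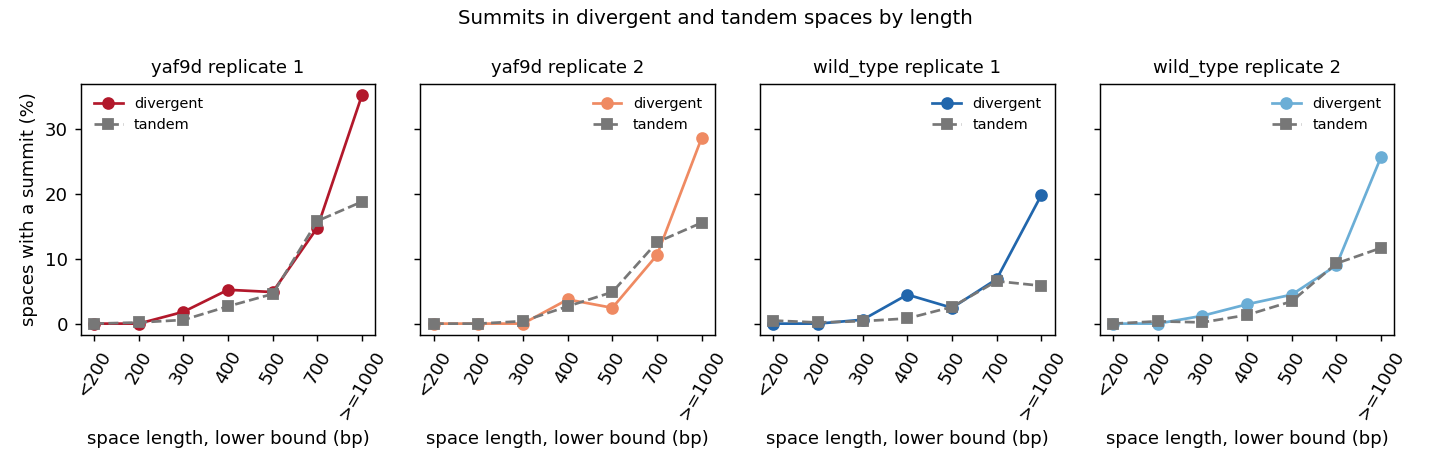
Share of spaces with a Swc4 summit (percent, vertical axis) by space length (horizontal axis, lower bound of each bin in bp), 1 panel per library, divergent spaces as circles with solid lines and tandem spaces as squares with dashed lines. The curves lie within 4 percentage points of each other below 1000 bp and part most in the last bin. There divergent spaces reach 35.3% and 28.7% in yaf9d and 19.9% and 25.7% in wild_type.

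Per length of sequence, divergent spaces held 13.7 and 9.79 summits per 100 kb in yaf9d and 7.31 and 9.51 in wild_type. Tandem spaces held 7.86 and 6.80 in yaf9d and 3.27 and 4.86 in wild_type. Coding genes held 2.49 and 9.02 in yaf9d and 7.41 and 4.83 in wild_type. The divergent density was above the coding density in 3 libraries, most clearly in yaf9d replicate 1, and slightly below it in wild_type replicate 1.

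Summits lay near the middle of their space. The relative distance from the middle, where 0 is the middle and 1 a coding start, had medians of 0.261 and 0.248 in yaf9d and 0.238 and 0.248 in wild_type. In yaf9d, 62.6% (95% interval 52.3 to 72.1) and 64.8% (52.5 to 75.8) of summits fell in the central stretch that makes up 33.3% of a space. In wild_type, 60.4% (46.0 to 73.5) and 60.9% (48.4 to 72.4) did. The medians averaged 0.255 ± 0.00916 in yaf9d and 0.243 ± 0.00697 in wild_type (SD, n = 2 each, exact permutation p = 0.333), and the sign of this difference reversed to -0.0027 when chromosome ends were kept.

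Measured in base pairs, the summit lay a median of 132 and 136.5 bp from the middle in yaf9d and 128.5 and 124.5 bp in wild_type. The nearer coding start was a median of 387 and 414 bp away in yaf9d and 373 and 374 bp in wild_type, and the farther one 629 and 656 bp away in yaf9d and 623 and 627 bp in wild_type. The side was close to evenly split, with 57.6% and 57.7% of summits in yaf9d and 52.8% and 58.0% in wild_type nearer the gene on the right. A summit within 100 bp of a coding start was found for 7 of 99 and 4 of 71 peaks in yaf9d and for 9 of 53 and 9 of 69 in wild_type. Most peaks stayed inside their space: 73 and 54 in yaf9d and 33 and 36 in wild_type reached neither coding gene.

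**Figure D2:**
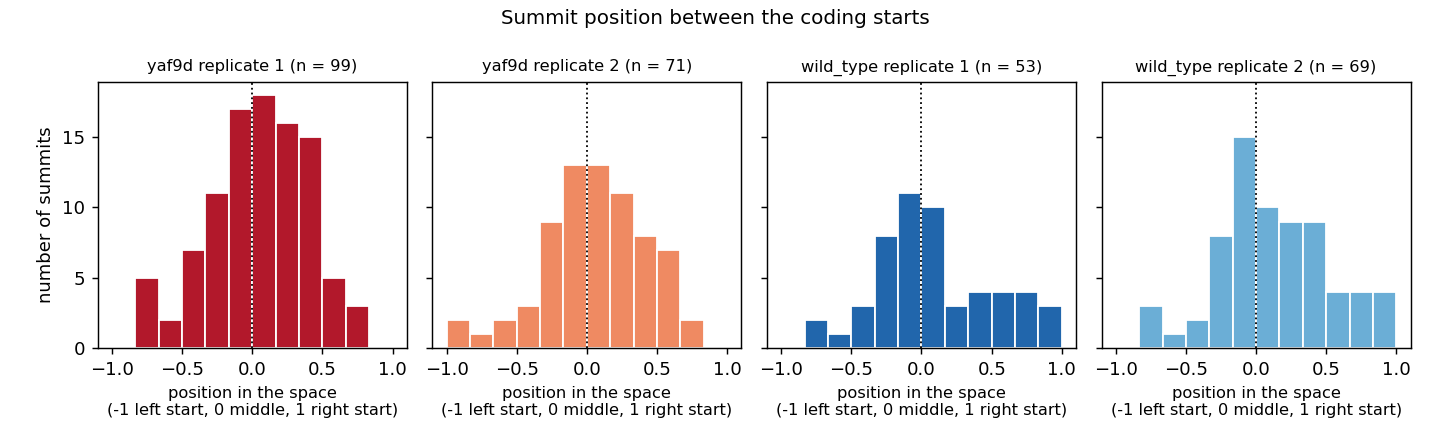
Position of each summit in its divergent space (horizontal axis, -1 at the coding start of the left gene, 0 in the middle, 1 at that of the right gene) against the number of summits, 1 panel per library. The summits pile up around the middle in all 4 panels, with 62.6% and 64.8% in yaf9d and 60.4% and 60.9% in wild_type inside the central 33.3%.

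The fold listed for a peak is the authors' enrichment value at its summit. It was used within its own list and not tested between lists. For these peaks it ran from 1.39 to 10.9 in yaf9d replicate 1 with a median of 2.75, and from 1.35 to 9.16 in yaf9d replicate 2 with a median of 2.52. In wild_type it ran from 1.39 to 5.08 with a median of 2.07 in replicate 1, and from 1.35 to 5.03 with a median of 2.17 in replicate 2. Other interior peaks had medians of 2.42 and 1.76 in yaf9d and 1.79 and 1.88 in wild_type, below the divergent median of each list.

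To place a peak within its own list, folds were turned into percentiles, with 100 for the highest. The median percentile was 54.7 and 75.7 in yaf9d and 67.8 and 66.2 in wild_type, against 48.0 and 46.4 in yaf9d and 47.2 and 46.2 in wild_type for other interior peaks. The excess was 19.1 ± 9.28 points (SD, n = 4 libraries) and was positive in 4 of 4 libraries (exact sign-flip permutation p = 0.125, the smallest possible). It was smallest in yaf9d replicate 1, at 6.74 points. Among peaks of fold 2 or more it was -1.02 points, a filter on the same fold that is ranked. Of the divergent-space peaks, 7.07% and 19.7% in yaf9d and 13.2% and 4.35% in wild_type were in the top 10% of their list. Peaks between tandem genes ranked almost alike in yaf9d, at 54.2 and 75.2, and lower in wild_type, at 51.8 and 53.1. Genotypes could not be separated, with median percentiles of 65.2 ± 14.8 in yaf9d and 67.0 ± 1.11 in wild_type (SD, n = 2 each, exact permutation p = 1). The difference of -1.78 points became 8.70 without yaf9d replicate 1.

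Within the class, longer spaces did not hold stronger peaks. In spaces of 1000 bp or more the median percentile was 53.6 and 73.6 in yaf9d and 64.3 and 64.3 in wild_type. In shorter spaces it was 56.3 and 80.1 in yaf9d and 75.0 and 67.8 in wild_type. Across peaks of a list, Spearman's correlation of length with fold lay between -0.0925 and 0.0744, given as a description since peaks share a library.

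**Figure D3:**
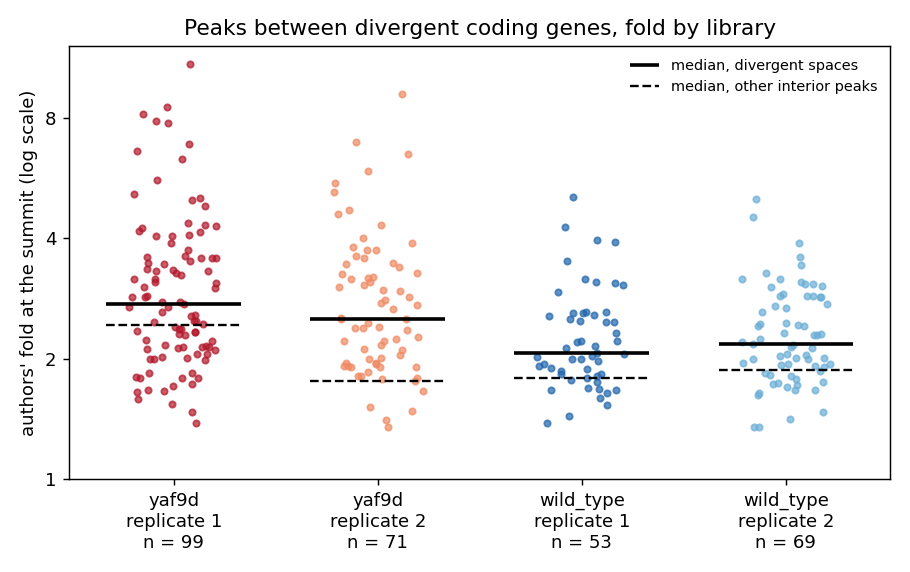
Fold of each peak in a divergent space (points, log axis) by library, with the median of these peaks as a solid bar and that of other interior peaks as a dashed bar. The solid bars stand at 2.75 and 2.52 in yaf9d and 2.07 and 2.17 in wild_type, each above its dashed bar.

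The same spaces recurred across libraries. All 4 lists had a summit in 31 divergent spaces, 2.45% of them, against 0.872% of all 4930 spaces. Peaks of all 4 lists overlapped 52 divergent spaces, a count that was not taken over all spaces. A summit in 1 list alone was found for 53 spaces, of which 28 came from yaf9d replicate 1, 5 from yaf9d replicate 2, 8 from wild_type replicate 1 and 12 from wild_type replicate 2. Of 64 spaces with a summit in both yaf9d lists, 50 also had one in wild_type (78.1%, exact Clopper-Pearson 95% interval 66.0 to 87.5). Of 38 spaces with a summit in both wild_type lists, 31 also had one in yaf9d (81.6%, 65.7 to 92.3). These shares and the counts for 1 list alone were not taken over all spaces. They are therefore not shown to be particular to divergent ones. The intervals cover counting error only and treat spaces of the same lists as independent.

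Spaces shared by all lists were long and ranked high. Their median length was 1119 bp, against 824 bp for spaces with a summit in 1 to 3 lists and 412 bp for those with none. Their median percentile was 71.8 and 85.4 in yaf9d and 80.5 and 78.6 in wild_type, against 49.2 and 70.8 in yaf9d and 57.1 and 54.5 in wild_type for spaces with fewer lists. Which lists held a peak formed these groups, and a stronger peak is more readily listed. The ranks are therefore a description. For a peak of this class, the other library of the same genotype had an overlapping peak in 74.7% and 94.4% of cases in yaf9d and in 81.1% and 65.2% in wild_type. The same held for 76.1% and 36.1% of other interior peaks in yaf9d and 54.4% and 67.1% in wild_type. The difference was positive in 2 of 4 libraries, the longer list of each genotype, and the part of list length in it was not tested (mean 20.5 ± 28.5 percentage points, SD, exact sign-flip permutation p = 0.5).

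Summits of a space lay close together between libraries. The strongest summits of the 2 yaf9d lists were a median of 15 bp apart over 64 spaces, and those of the 2 wild_type lists 19 bp apart over 38. Across genotypes the medians were 24, 30, 17 and 26 bp over 37 to 49 spaces. In the 31 spaces shared by all lists, all 4 strongest summits fell within 50 bp of each other in 14 and within 100 bp in 18.

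The widest disagreement was at RPI1 and RHO3, which encode a regulator linked to the Ras pathway and a small GTPase of polarised growth. This space of 1874 bp on chromosome IX was the only one with more than 1 summit in a list. A summit 489 to 495 bp from the RPI1 start was listed in all 4 libraries, with folds of 2.14 and 1.95 in yaf9d and 1.90 and 1.93 in wild_type. A further summit near RHO3, 459 and 455 bp from its start, was listed in yaf9d alone, with folds of 2.38 and 2.53. A wild_type replicate 2 peak reached across from 138189 to 139491, so the second site was under a peak there without a summit of its own.

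The divergent space with the highest mean percentile in both genotypes lay between ENV9, an oxidoreductase of lipid droplets, and SRL1, a mannoprotein of the cell wall (YOR246C and YOR247W, chromosome XV). Its folds were 10.9 and 9.16 in yaf9d and 5.08 and 4.51 in wild_type. The yaf9d replicate 1 peak ran from 796743 to 797354. All 4 summits fell within 12 bp, between 371 and 383 bp from the ENV9 start in a space of 882 bp. The genotypes' folds did not overlap here, but each fold belongs to its own list.

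Between the phosphatase regulator gene SDS23 and OLE1, the fatty acid desaturase gene, folds were 8.50 and 6.97 in yaf9d and 3.51 and 3.02 in wild_type. The summits were 451 to 471 bp from the SDS23 start in a space of 1009 bp on chromosome VII (397863 to 398405 in yaf9d replicate 1). ARB1, an ATPase of ribosome assembly, and PHM8, a phosphatase induced by phosphate starvation, flanked a 689 bp space with folds of 7.85 and 6.50 in yaf9d and 3.92 and 3.89 in wild_type. Its summits lay within 22 bp of each other. At AGP1, an amino acid permease gene, and KCC4, which encodes a kinase at the septin ring, folds were 7.77 and 5.90 in yaf9d and 4.26 and 5.03 in wild_type. This space on chromosome III had the highest fold of the 31 in wild_type replicate 2.

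CLN2, the gene of a cyclin for entry into the cell cycle, faces BBP1, of a spindle pole body component. Their 1110 bp space had folds of 6.89 and 5.22 in yaf9d and 3.12 and 2.71 in wild_type. The summits were 540, 541, 505 and 552 bp from the CLN2 start in yaf9d replicates 1 and 2 and wild_type replicates 1 and 2, close to the middle. The percentile of this space averaged 93.2 in yaf9d and 84.4 in wild_type.

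Several long spaces had their summit well off the middle. Between UBC4, a ubiquitin-conjugating enzyme gene, and TEC1, which encodes a regulator of filamentous growth, folds were 8.18 and 5.51 in yaf9d and 2.60 and 2.87 in wild_type. The summits were 393 and 414 bp from the TEC1 start in yaf9d and 373 and 413 bp in wild_type, in a space of 1999 bp. A like position was found at LYS20, which encodes homocitrate synthase of lysine synthesis. Its summits were 405 and 401 bp from the start in yaf9d and 393 and 374 bp in wild_type. Folds at MRX19 and LYS20 were 6.31 and 3.73 in yaf9d and 2.62 and 3.03 in wild_type. At ATG40 and PDR5, a multidrug transporter gene, folds were 5.17 and 4.71 in yaf9d and 2.22 in wild_type replicate 1, while wild_type replicate 2 had no peak there. Nearer the middle of its space was the summit between SOK2, a regulator of filamentous growth, and SPO20, a sporulation gene. Folds there were 5.05 and 4.32 in yaf9d and 2.57 and 3.07 in wild_type.

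Other spaces were among the first 10 of wild_type. OCA5 and WSC4, a cell wall stress sensor gene, had folds of 4.25 and 2.80 in yaf9d and 3.96 and 3.16 in wild_type. FUI1, the uridine permease gene, and PRE7, of a proteasome core subunit, had 3.58 and 2.76 in yaf9d and 2.94 and 3.59 in wild_type. MAM3 and GPD2, a glycerol 3-phosphate dehydrogenase gene, had 4.29 and 4.61 in yaf9d and 2.56 and 3.42 in wild_type. IDH1, an isocitrate dehydrogenase subunit gene, and NCE103, the carbonic anhydrase gene, had 4.06 and 3.45 in yaf9d and 3.10 and 2.68 in wild_type.

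The space between DUS3 and SFP1 ranked lower in the yaf9d lists. SFP1 encodes an activator of ribosomal protein and ribosome biogenesis genes. At DUS3 and SFP1 the folds were 2.14 and 1.95 in yaf9d and 3.16 and 2.91 in wild_type, and the percentile averaged 49.6 in yaf9d and 86.1 in wild_type. The yaf9d replicate 1 summit was 255 bp from the DUS3 start, and the other 3 were 519, 502 and 486 bp from it. From the SFP1 start the summits were 865 and 601 bp in yaf9d and 618 and 634 bp in wild_type. All of them thus lay nearer DUS3. Both yaf9d folds lay below both wild_type folds, a difference that was not tested.

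Among the 31 shared spaces, the longest were KTI12 and HAP4 (2346 bp), ICS2 and AMN1 (2238 bp) and UBC4 and TEC1. HAP4 encodes the activating subunit of the respiratory regulator, and its space had folds of 2.85 and 2.40 in yaf9d and 1.82 and 1.68 in wild_type. AMN1, a gene of daughter cell separation, had 3.45 and 3.38 in yaf9d and 1.86 and 2.86 in wild_type. There the wild_type replicate 1 summit was 1044 bp from the ICS2 start, and the others were between 1502 and 1520 bp from it. The shortest were MIN4 and YAP1 (575 bp), SPL2 and ARO9 (608 bp) and ARB1 and PHM8. YAP1, the oxidative stress regulator gene, had 4.15 and 3.80 in yaf9d and 2.47 and 2.87 in wild_type, and ARO9, an aromatic aminotransferase gene, had 4.98 and 3.25 in yaf9d and 2.62 and 2.29 in wild_type.

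**Figure D4:**
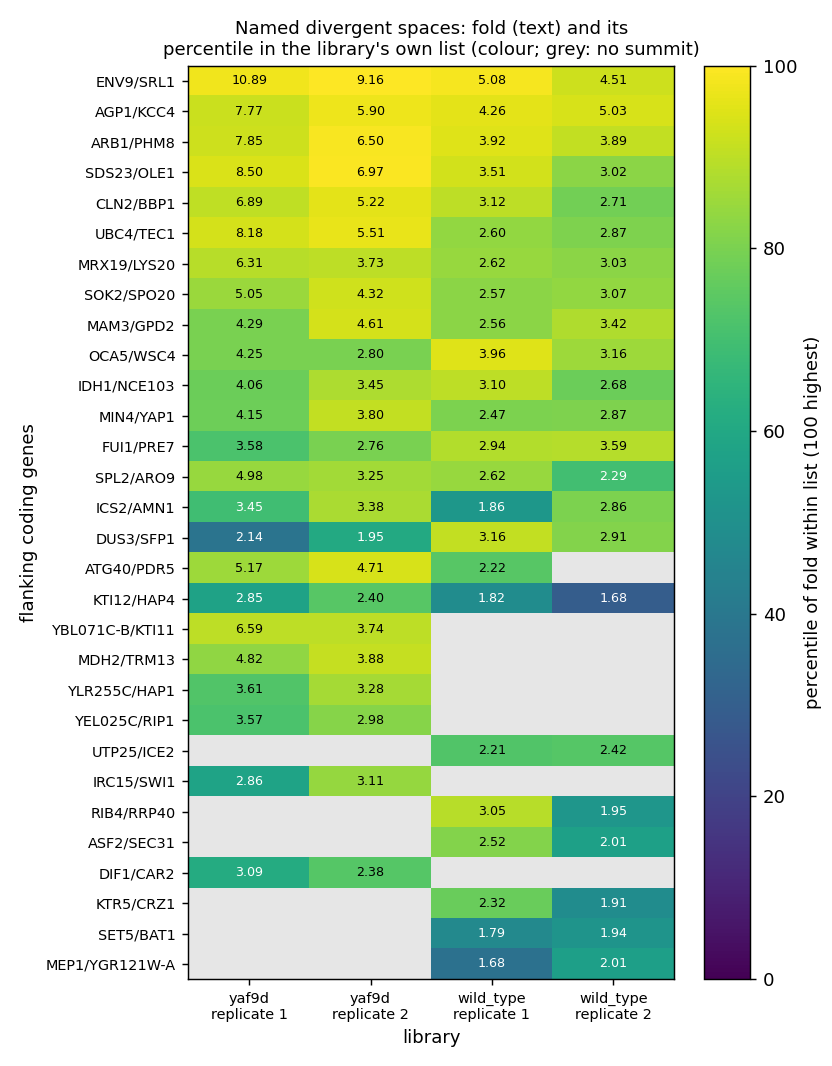
Named divergent spaces (rows, by flanking genes) against library (columns, yaf9d left of wild_type), with the fold as text and its percentile within the library's own list as colour from 0 to 100. Grey marks a space without a summit. ENV9/SRL1 stands first, with 10.9 and 9.16 in yaf9d and 5.08 and 4.51 in wild_type, and the lower rows hold spaces listed in 1 genotype.

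A summit in both yaf9d lists and neither wild_type list was found for 14 divergent spaces, 1.10% of them, against 0.933% of all 4930 spaces. These shares are close, so the pattern is not shown to be particular to divergent spaces. The count was 42 without yaf9d replicate 2 and 27 without wild_type replicate 2. Leaving out a library drops a condition of the pattern, so such a count can only stay or rise. At 6 of the 14 a wild_type peak touched the space with its summit elsewhere, and 8 had no wild_type peak. The first was at YBL071C-B and KTI11, a gene of diphthamide synthesis and tRNA modification, with folds of 6.59 and 3.74 and summits 95 and 91 bp from the YBL071C-B start. Peaks of both wild_type lists touched this space as well. MDH2, the cytosolic malate dehydrogenase gene, and TRM13 had 4.82 and 3.88, and peaks of both wild_type lists touched their space too. HAP1, which encodes a heme-responsive regulator, shared a space with YLR255C and had 3.61 and 3.28, with the summit 39 and 20 bp from the YLR255C start. A wild_type replicate 1 peak touched that space. RIP1, the Rieske iron-sulfur protein gene of the respiratory chain, had 3.57 and 2.98, with the summit 221 and 214 bp from its start and no wild_type peak. SWI1, of the SWI/SNF remodeler, shared a space with IRC15 and had 2.86 and 3.11, again with no wild_type peak. CAR2, of arginine breakdown, and DIF1, a regulator of ribonucleotide reductase, had 3.09 and 2.38, and a wild_type replicate 1 peak touched their space.

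The reverse pattern, both wild_type lists and neither yaf9d list, was found for 7 divergent spaces, 0.552% of them, against 0.284% of all spaces. The count was 19 without wild_type replicate 1 and 15 without wild_type replicate 2, where a condition was again dropped. It was 2 with peaks of fold 2 or more. With peak overlap in place of summits, 11 spaces were of yaf9d alone and 67 of wild_type alone, so the order of the 2 patterns turned round. The overlap patterns were not counted over all spaces, so they are not shown to be particular to divergent ones. No yaf9d peak touched any of the 7. UTP25, of small ribosomal subunit processing, and ICE2 had folds of 2.21 and 2.42. RIB4, of riboflavin synthesis, and RRP40, an exosome subunit gene, had 3.05 and 1.95. ASF2 and SEC31, of the COPII vesicle coat, had 2.52 and 2.01. KTR5 and CRZ1, a calcineurin-dependent regulator gene, had 2.32 and 1.91. SET5 and BAT1, of branched-chain amino acid synthesis, had 1.79 and 1.94, and MEP1, an ammonium permease gene, and YGR121W-A had 1.68 and 2.01.

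In 4 of these 7 wild_type spaces the summits lay close to a coding start. Of 14 summits, 8 were within 100 bp of one and the median distance was 86.5 bp. At RRP40 the summits were 9 and 5 bp from the start, and at SEC31 86 and 87 bp. At KTR5 and CRZ1 and at SET5 and BAT1 they lay near the middle, with relative distances of 0.0831 and 0.0955 for KTR5/CRZ1 and of 0.0851 and 0.0277 for SET5/BAT1. For the 14 yaf9d spaces, 5 of 28 summits were within 100 bp and the median was 250 bp. In the 31 shared spaces, 1 of 124 was, with a median of 458.5 bp. The groups of spaces were formed by which lists had a summit, so these distances are a description. Their median lengths also differed, at 843 bp for the yaf9d spaces, 484 bp for the wild_type spaces and 1119 bp for the shared ones.

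A peak can reach a divergent space with its summit outside, and in such spaces the genotypes did not overlap. In yaf9d, 130 and 130 divergent spaces were touched by a peak of 1 bp overlap or more, against 232 and 187 in wild_type. Of these, 32 and 60 in yaf9d and 179 and 118 in wild_type had no summit inside. That was 2.53% and 4.74% of the 1267 divergent spaces in yaf9d and 14.1% and 9.31% in wild_type. Among all 4930 spaces, 2.11% and 4.12% in yaf9d and 7.22% and 5.72% in wild_type were touched in the same way.

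The nearest summit then mostly lay inside a coding gene. It was in a coding gene for 30 of 32 and 57 of 60 spaces in yaf9d and for 178 of 179 and 114 of 118 in wild_type. Its median distance to the edge of the space was 150.5 and 156.5 bp in yaf9d and 112 and 144 bp in wild_type. A peak has to reach the space to be counted here, which limits that distance. The edge of a divergent space is a coding start. The summit was within 200 bp of the edge for 22 of 32 and 37 of 60 spaces in yaf9d. In wild_type it was for 148 of 179 and 77 of 118. Such spaces were shorter than those with a summit, with medians of 631.5 and 594.5 bp in yaf9d and 431 and 508.5 bp in wild_type, and 4 and 7 in yaf9d and 64 and 37 in wild_type were under 300 bp.

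Touched spaces without a summit averaged 46 ± 19.8 in yaf9d and 148.5 ± 43.1 in wild_type (SD, n = 2 each). The difference of -102.5 spaces was larger than the spread between replicates, and the groups did not overlap (exact permutation p = 0.333, again the lowest these groups allow). This count was added after the lists had been seen. Of peaks with a summit in a coding gene, 32 of 206 (15.5%) and 61 of 748 (8.16%) reached a divergent space in yaf9d, against 182 of 614 (29.6%) and 116 of 400 (29.0%) in wild_type. The means were 11.8 ± 5.22% in yaf9d and 29.3 ± 0.454% in wild_type (exact permutation p = 0.333). This share was not taken for spaces of other orientation, so the difference is not shown to be particular to divergent spaces. The part of the number of coding summits in this difference was not tested. With peaks of fold 2 or more the 2 differences were -41.5 spaces and -29.3 percentage points.

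**Figure D5:**
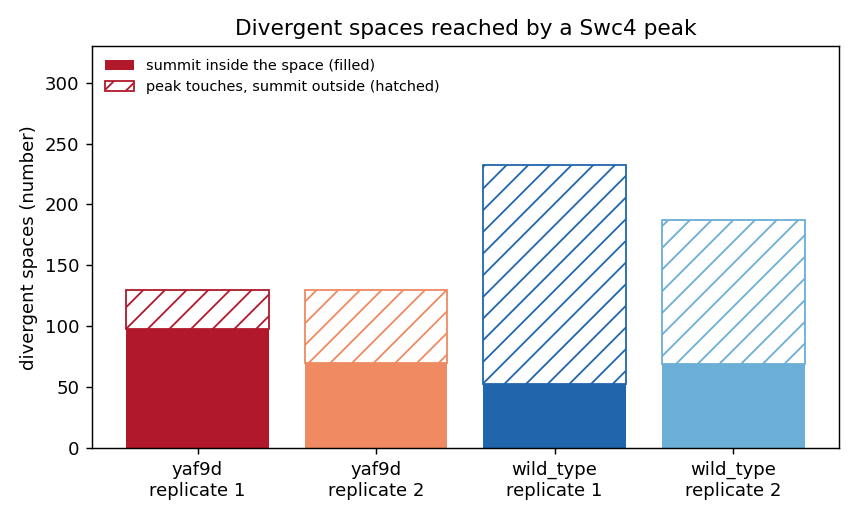
Number of divergent spaces (vertical axis) with a summit inside (filled) or touched by a peak whose summit lies outside (hatched), by library. The hatched part is 32 and 60 in yaf9d and 179 and 118 in wild_type.

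The histone pairs are textbook divergent spaces and show this difference between touching and summit. At HHT2 and HHF2, which encode histones H3 and H4 from a 676 bp space, a peak touched the space in all 4 lists and no summit lay inside. The summits were 25 and 63 bp inside HHT2 in yaf9d and 88 and 50 bp inside it in wild_type, with folds of 1.43 and 1.37 in yaf9d and 1.62 and 1.56 in wild_type. HTA2 and HTB2, the H2A and H2B pair in a 699 bp space, had a summit in wild_type replicate 2 alone, with a fold of 2.20. HTA1 and HTB1 had no summit, but a wild_type replicate 2 peak of fold 1.56 (914758 to 916543) touched their space with its summit 735 bp outside. HHT1 and HHF1 had neither a summit nor a touching peak. The space of GAL10 and GAL1 holds an RNA gene and is outside the class, and HIS3 and MRM1, 237 bp apart, had no peak. YAF9 and SWC4 themselves each border a divergent space, and no list had a summit in that space or a peak over the gene, so the deletion cannot be checked from these files.

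Lists of genes were read against the 2534 coding genes at eligible divergent spaces, of which 10.3% had a summit in at least 1 library. The libraries and folds given for their genes refer to summits, and a peak could touch a space in further libraries. A listed gene is 1 of the 2 that border its space, and the summit may lie nearer the other. Genes of ribosome assembly and RNA polymerase I had a summit for 1 of 35, HAS1, a helicase gene, with a fold of 2.66 in yaf9d replicate 2 alone. Cell wall genes had one for 6 of 20. SRL1 was described above, and ECM33 had folds of 4.06 and 3.18 in yaf9d and 3.17 in wild_type replicate 2. TOS1, which faces YSY6, had 2.40 in yaf9d replicate 1 and 2.25 in wild_type replicate 2. Those summits were 561 and 627 bp from the TOS1 start and 100 and 34 bp from that of YSY6.

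Glycolysis and fermentation genes had a summit for 4 of 11, none of them in all lists. PFK2, a phosphofructokinase subunit gene, had folds of 1.80 and 1.52 in yaf9d alone, and PDC6, a pyruvate decarboxylase gene, had 1.81 in yaf9d replicate 2 alone. The PDC6 summit was 1417 bp from the PDC6 start and 236 bp from the start of CTT1, which it faces. ADH3, an alcohol dehydrogenase gene, had 2.15 in wild_type replicate 1 alone. At PUP2 and ENO1, a proteasome subunit and an enolase gene, folds were 1.54 and 1.35 in yaf9d and 1.36 in wild_type replicate 2, and these 3 summits lay up to 296 bp apart. They were 1246 to 1542 bp from the PUP2 start and 245 to 541 bp from that of ENO1. Amino acid synthesis genes had one for 5 of 22, with LYS20 and LEU4 in all lists. LEU4, of leucine synthesis, faces MET4, the regulator of sulfur metabolism, with folds of 1.79 and 1.66 in yaf9d and 1.95 and 1.62 in wild_type.

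DNA repair, checkpoint and nucleotide supply genes had a summit for 3 of 23. RAD54, a recombination motor gene, had one in all lists with folds of 2.15 and 2.12 in yaf9d and 2.02 and 2.05 in wild_type. Those summits were 1184 and 1083 bp from the RAD54 start in yaf9d and 1190 and 1186 bp in wild_type. From the start of SUT1, which it faces, they were 551 and 652 bp in yaf9d and 545 and 549 bp in wild_type. RMI1, whose product works with the helicase Sgs1, had 2.31 and 3.02 in yaf9d and 1.67 and 1.70 in wild_type, and TOF1, of the replication fork, had 2.16 in yaf9d replicate 1 alone. Chromosome segregation genes had one for 2 of 20, ASK1 with 2.49 in yaf9d replicate 1 and CTF19 with 1.67 in wild_type replicate 2. Subunits of SWR1, NuA4 and INO80 had one for 4 of 20. IES5 faces the methionine synthase gene MET6 and had 2.48 and 2.51 in yaf9d alone. SWR1 had a summit of fold 3.07 in wild_type replicate 2 alone, and peaks of both wild_type lists touched its space. IES6 had one of 3.73 in yaf9d replicate 1 alone, while peaks of every list touched its space.

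Of the remaining lists, histones had a summit for 3 of 10 genes, in 2 spaces. HTA2 and HTB2 share the wild_type replicate 2 summit. HTZ1, the H2A.Z gene, had a summit at 1.48 in yaf9d replicate 1 alone, while peaks of every list touched its space. Heat shock proteins and chaperones had one for 2 of 10, SSC1 with 2.16 in yaf9d replicate 1 and 1.35 in wild_type replicate 2 and KAR2 with 2.37 in yaf9d replicate 1. Proteasome genes had one for 2 of 17, PRE7 and PUP2. Cyclins and related factors had one for 2 of 12, CLN2 in all lists and YHP1 with 3.56 in yaf9d replicate 1. The lists were not tested, and with 10 to 35 genes each their shares rest on few spaces.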

How the data were processed

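Peaks of Swc4-13myc ChIP-seq were listed by the authors for each of 4 libraries, not for pooled reads. MACS2 (version 2), BWA 0.7.15-r1140 and SAMtools 1.4 are named as tools in the submitters' processing notes. What each did, the genome build, any control and the handling of reads with several matches were not given in the sources used here. The deposited lists give a fold (a ratio at the summit), −log10 p and q values, and a score that was not used. The lowest deposited −log10 q was 1.31.

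Summits were assigned with Python 3.11.15 and pandas 2.3.3 to spaces between coding genes in the RefSeq gene table (assembly R64). Systematic names gave the strand, and chromosome ends were the outermost gene or peak. Coordinates of that table are not printed, and peak starts are 1-based. As a check, 88.8% of 276 summits within 300 bp of a tRNA gene's middle lay within 100 bp of it. An interior space has at least 1 base 30 kb or more from both ends. Genotypes were compared by exact permutation of library values, and divergent with other peaks by exact sign-flip of within-library differences, both two-sided. Of the 11 p-values, 3 came from counts added after the lists had been seen. Assignment was tested on simulated data. No sequence was used.

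The class and gene lists were chosen with earlier results of these data known. Spaces were named by rule: the 10 best mean percentiles per genotype, the 6 best listed in 1 genotype alone, the 3 longest and shortest shared by all lists, fixed pairs, up to 3 members per gene list, YAF9 and SWC4. RPI1 and RHO3 were named after their values were seen.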

Additional observations from a re-analysis of the deposited data

Results flagged for a closer look

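Yaf9d replicate 2 listed 39 peaks on the mitochondrial chromosome, against 0 in yaf9d replicate 1 and 0 in each wild_type library. These peaks lie outside the nuclear comparisons. Groups of 2 libraries are too small for a search for outlying libraries.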

How the results depend on the processing

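The comparisons were repeated with peaks of fold 2 or more, with −log10 q of 5 or more, without the 30 kb exclusion, with overlap in place of summits, with spaces of 200 to 1000 bp, against tandem peaks and with each library left out. Of the planned and added alternatives, 75 values of tested differences kept their direction and 5 reversed, and 17 counts stayed within 1.5 times and 7 did not. The causes were not tested. With overlap, the yaf9d minus wild_type difference in divergent spaces was -79.5 in place of 23, the spaces shared by all lists numbered 52 and those of wild_type alone 67. With fold 2 or more, wild_type alone had 2 spaces and the percentile excess was -1.02. Without the end exclusion the difference in relative distance was -0.0027. Leaving out libraries gave 9 to 37 for the difference in spaces, -1.77 to 9.08 points for the share of summits and -12.3 to 8.70 for the percentile difference, with both sign changes made by leaving out yaf9d replicate 1. Spaces of all lists then numbered 31 to 44, those of yaf9d alone 19 to 42 (42 without yaf9d replicate 2, 27 without wild_type replicate 2), and those of wild_type alone 7 to 19 (19 and 15 without wild_type replicates 1 and 2). These pattern counts can only stay or rise when a library is left out, since a condition is dropped. The touched-space difference ran from -133 to -72. Against tandem peaks, an alternative added after the data were seen, the percentile excess was 7.49. With the replicate number as a replicate block, the difference of 23 spaces had an exact p of 0.5, the smallest for 2 pairs. Over 31 shared spaces the replicate deviations of the genotypes had r = 0.00500, and the labels do not say that numbers pair the libraries. Depth is unknown, so a missing peak may reflect it.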
